A study of Homo sapiens with 10 samples.

Results

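The matrix metalloproteinases (MMP), the ADAM and ADAMTS proteases and the tissue inhibitors of metalloproteinases (TIMP) were followed across the 5 transfection groups. Members were taken by name: every gene symbol in the count files made of MMP, ADAM, ADAMTS or TIMP and a number, with repeated symbols summed. The rule matched 67 of 52402 symbols, 22 MMP, 22 ADAM, 19 ADAMTS and 4 TIMP. Of these, 36 had 10 or more counts in at least 2 of the 10 libraries and are described here: 13 MMP, 10 ADAM, 9 ADAMTS and all 4 TIMP. Of the 31 other members, 14 had no count in any library, and the highest count of the remaining 17 in any library was 16.

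The libraries came from BEAS2B, a human bronchial epithelial cell line labelled as normal and, in the control group, as WT. All groups were transfected with Lipofectamine 2000 and harvested 48 h later, with 2 libraries per group. The control group (miRcontrol) received a scrambled miRNA, miR3124_mimic the miR-3124-5p mimic, miR200b_mimic the miR-200b-3p mimic and miR92b_inhibitor the miR-92b inhibitor, each at 50 nM. The 3-miRNA mixed group (3-miRNA_mixed) received the 3 agents together, in amounts that the sources used here do not give. The sources do not say whether the libraries of a group came from separate transfections, so p-values measure the spread between these libraries, which may be technical.

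Metalloproteinases are zinc-dependent enzymes. MMPs cut collagens, gelatin, proteoglycans and other matrix proteins. ADAMs are mostly anchored in the membrane and release the outer part of growth factors, cytokine receptors and adhesion proteins. ADAMTS enzymes are secreted and act on proteoglycans and on collagen precursors, while TIMPs bind the active site of these enzymes and block it. In the airway these genes are known for their part in wound repair, matrix turnover and invasion of tumours. A miRNA pairs mainly through its seed, bases 2 to 8, with matching words in the 3′UTR of an mRNA, and this lowers the mRNA's level or translation.

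The mature miRNAs behind the 3 agents are shown first, because their seeds define the words that were searched in the members. The sequences are from RefSeq (GRCh38.p14), 5′ to 3′, with the seed in capitals. The labels name no arm for the miR-92b inhibitor, so both arms are given.
miR-3124-5p: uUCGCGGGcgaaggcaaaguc
miR-200b-3p: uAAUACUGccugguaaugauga
miR-92b-5p: aGGGACGGgacgcggugcagug
miR-92b-3p: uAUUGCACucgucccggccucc

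The 7-base word complementary to each seed was searched on the sense strand of 3′UTRs, using for each gene its longest coding transcript in GENCODE release 29. A 3′UTR was available for 35 of the 36 members and for 12236 of the genes tested. The member without one was ADAMTS6, so no word was searched in it. CCCGCGA, the word of miR-3124-5p, was in 0 of the 35 members and in 0.621% of all genes. CAGTATT, the word of miR-200b-3p, was in 5 members (ADAM12, ADAMTS3, ADAMTS12, MMP16 and TIMP2) and in 19.5% of genes. CCGTCCC, for miR-92b-5p, was in 1 member (MMP17) and in 4.184% of genes, and GTGCAAT, for miR-92b-3p, was in 3 members (ADAM10, ADAM19 and ADAMTS16) and in 13.109% of genes. A match is a description of the letters and was not tested as a binding site.

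The stretches below hold the words in ADAM12 and TIMP2, whose mRNA was lower in miR200b_mimic, in ADAMTS12, whose mRNA was higher there, and in MMP17, the member with the miR-92b-5p word. They are printed as the mRNA reads, with the word in capitals. In ADAM12 (chr10:126015012-126015041 and chr10:126014990-126015019, minus strand, GRCh38) the words began at bases 2250 and 2272 of a 3′UTR of 4898 bases. In TIMP2 (chr17:78852977-78853006, minus strand) the word lay near the end of the 3′UTR, at base 2673 of 2690. In ADAMTS12 (chr5:33524643-33524672, minus strand) it began at base 2528 of 3653, and in MMP17 (chr12:131851647-131851676, plus strand) at base 385 of 497.
ADAM12, word 1: ttacaatatggaCAGTATTaatccttccaa
ADAM12, word 2: ccttccaagatgCAGTATTtatcaagtgaa
TIMP2: gtggacaataaaCAGTATTatcaaagagaa
ADAMTS12: gtgatgagtcgtCAGTATTttgacatgtcc
MMP17: cccacagggcctCCGTCCCcaggtccccag

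Library totals ranged from 13587666 to 18503890 counts, and the RLE normalization factors from 0.985 to 1.016. Levels of 1 gene across libraries are given as read counts normalized to library size (CPM), and levels of different genes are compared only per length, as RPKM. Of 9 bronchial epithelial markers, 5 had 10 or more counts in both miRcontrol libraries, and KRT5, TP63, EPCAM and CDH1 did not. The number was 4 with miR3124_mimic, where KRT19 was also below, and 5 with miR92b_inhibitor. It was 7 with miR200b_mimic and with 3-miRNA_mixed, where only KRT5 and TP63 were below. The summed epithelial markers ranged from 2280 to 2320 CPM in miRcontrol, 2860 to 2870 with miR3124_mimic, 4430 to 4520 with miR200b_mimic, 2120 to 2220 with miR92b_inhibitor and 4250 to 4300 with 3-miRNA_mixed. The 8 mesenchymal markers summed to 7540 to 7570 CPM in miRcontrol, 4720 to 4850 with miR3124_mimic, 4730 to 4780 with miR200b_mimic, 7040 to 7200 with miR92b_inhibitor and 5160 to 5170 with 3-miRNA_mixed. The 5 leukocyte markers summed to 17.7 to 42.1 CPM and the 4 endothelial markers to 0.224 to 4.78 CPM over all libraries, and CD3E was at 0 in all groups other than miRcontrol. These marker levels moved with the groups, and their part in the members' results was not tested. In bulk RNA, fewer cells expressing a gene and less RNA per cell cannot be told apart.

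The members together took 0.306% of all counts in each miRcontrol library. They took 0.442% and 0.437% with miR3124_mimic, 0.233% and 0.236% with miR200b_mimic, 0.444% and 0.441% with miR92b_inhibitor, and 0.370% and 0.374% with 3-miRNA_mixed. Per length, the most abundant member in miRcontrol was MMP1 with 373 ± 24.6 RPKM (SD, n = 2 libraries), followed by TIMP2 with 102 ± 1.17, MMP14 with 66.2 ± 0.858, ADAM9 with 64.0 ± 2.05 and TIMP1 with 41.3 ± 2.83. The levels of MMP14 and ADAM9 differed by less than the sum of their SDs. MMP1 made up 80.4% of the MMP sum in miRcontrol, 66.3% in miR200b_mimic and 89.2% in miR92b_inhibitor. Thus the MMP sum largely followed MMP1: it was 464 ± 23.9 RPKM in miRcontrol, 604 ± 11.9 with miR3124_mimic, 277 ± 12.2 with miR200b_mimic, 1230 ± 5.59 with miR92b_inhibitor and 723 ± 24.6 with 3-miRNA_mixed.

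**Figure D1:**
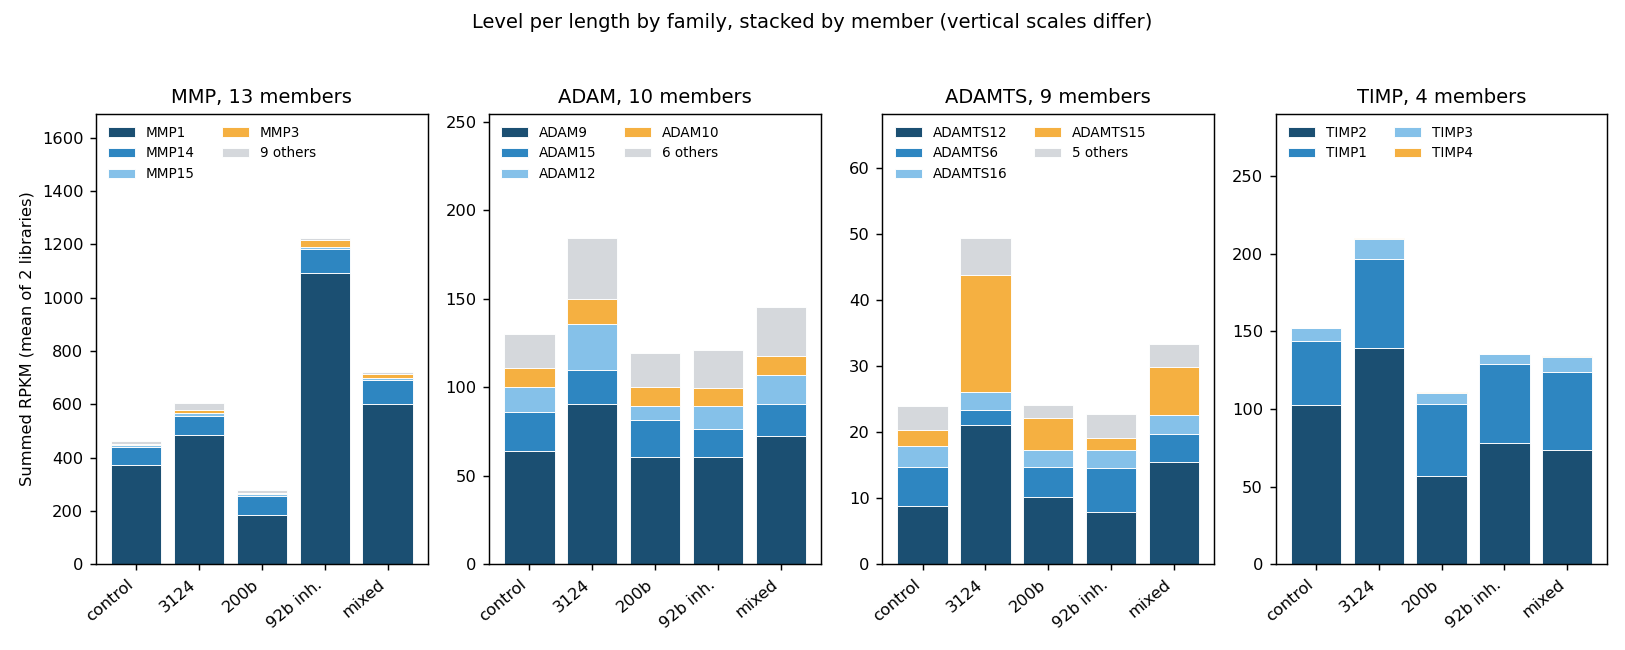
Summed level per length (RPKM, mean of 2 libraries) of each family in the 5 groups, stacked by member, with a separate linear vertical scale per family. MMP1 forms most of the MMP bar in every group, and the ADAMTS bar of miR3124_mimic (49.4 RPKM) stands above that of miRcontrol (23.9 RPKM) mainly through ADAMTS15 and ADAMTS12.

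The other families had lower sums. The ADAM sum was 130 ± 0.267 RPKM in miRcontrol, 185 ± 3.15 with miR3124_mimic, 120 ± 0.507 with miR200b_mimic, 121 ± 4.18 with miR92b_inhibitor and 145 ± 0.478 with 3-miRNA_mixed, and ADAM9 formed between 49.1% and 50.5% of it in every group. The ADAMTS sum was 23.9 ± 0.325 RPKM in miRcontrol, 49.4 ± 1.28 with miR3124_mimic, 24.1 ± 0.324 with miR200b_mimic, 22.7 ± 0.399 with miR92b_inhibitor and 33.3 ± 0.366 with 3-miRNA_mixed. The TIMP sum was 152 ± 3.91 RPKM in miRcontrol, 210 ± 2.62 with miR3124_mimic, 111 ± 1.55 with miR200b_mimic, 136 ± 5.52 with miR92b_inhibitor and 134 ± 4.22 with 3-miRNA_mixed. TIMP2 held 67.3% of the TIMP sum in miRcontrol and 51.2% in miR200b_mimic. These sums carry no test.

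Each transfected group was compared with miRcontrol to ask which members responded to each agent. Calls rest on the quasi-likelihood test of edgeR, with p-values adjusted by Benjamini-Hochberg over 14884 genes and a threshold of 0.05, and all 4 comparisons share the same control libraries. Of the 36 members, 35 passed the filter on low counts, and MMP13 did not. ADAMTS10, TIMP4, MMP12, ADAM20 and MMP9 reached 10 counts in only 2, 3, 3, 5 and 5 libraries. For ADAMTS10 and TIMP4 the only group with both libraries at 10 or more was miR3124_mimic, and for ADAM20 and MMP9 it was miR3124_mimic and 3-miRNA_mixed. Counts over the 35 therefore describe the members that passed and are not independent of their level.

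In miR3124_mimic, 24 of 35 members were higher (68.6%) and 3 were lower (8.57%), against 25.7% and 25.3% of all genes. With a fold of at least 2 as well, 10 members were higher and 1 was lower, against 5.37% and 2.75% of all genes. Without ADAM20, ADAMTS10, MMP9 and TIMP4, 21 of 31 members were higher in miR3124_mimic, 7 of them by a fold of at least 2. The 24 comprised 8 MMPs, 6 ADAMs, 6 ADAMTSs and all 4 TIMPs, and the 3 lower members were ADAM15, ADAMTS1 and ADAMTS6. In miR200b_mimic, 5 members were higher and 13 lower, against 21.4% and 19.1% of all genes, and 0 were higher and 4 lower by a fold of at least 2, against 2.72% and 2.16%. The median log2 fold change of the 35 members was 0.52 in miR3124_mimic and -0.26 in miR200b_mimic, where the medians of all genes were 0.00 and -0.01.

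In miR92b_inhibitor, 8 members were higher and 11 lower, against 17.5% and 18.2% of all genes. By a fold of at least 2, 3 members (MMP1, MMP3 and MMP9) were higher and 0 lower, against 0.988% and 0.927% of all genes. In 3-miRNA_mixed, 15 members were higher and 8 lower, against 21.5% and 21.1%, and 3 were higher (ADAMTS15, MMP3 and MMP9) and 2 lower (ADAMTS1 and MMP17) by a fold of at least 2, against 3.14% and 1.53%. Without ADAM20, ADAMTS10, MMP9 and TIMP4, 7 of 31 members were higher in miR92b_inhibitor and 14 in 3-miRNA_mixed. In each of these groups, 2 of them were higher by a fold of at least 2. The members' median log2 fold changes were -0.19 in miR92b_inhibitor and 0.12 in 3-miRNA_mixed. ADAM20, MMP12, MMP19 and MMP25 passed the test in none of the 4 comparisons.

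**Figure D2:**
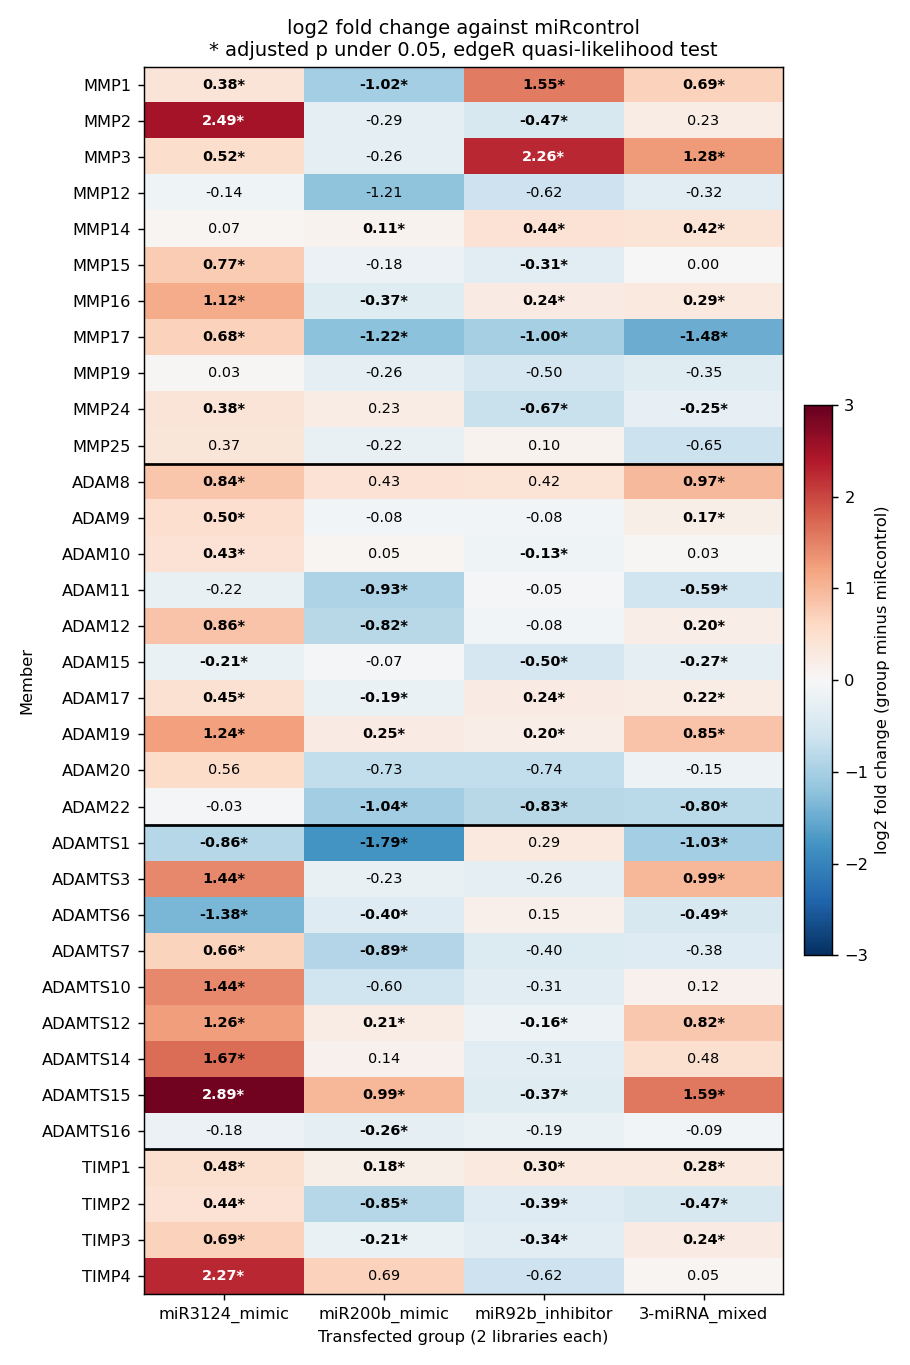
log2 fold change of 34 tested members against miRcontrol in the 4 transfected groups, by family, with an asterisk and bold print where the adjusted p was under 0.05. MMP9 is left out because its control libraries held 1 and 0 counts. The miR3124_mimic column is mostly red, with ADAMTS15 (2.89) and MMP2 (2.49) highest among members with 10 or more counts in every library, and MMP3 is highest (2.26) in miR92b_inhibitor.

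Among the secreted MMPs, MMP1 and MMP3 were highest in miR92b_inhibitor. MMP1, the interstitial collagenase that cuts fibrillar collagens, had 769 and 700 CPM in miRcontrol, 971 and 942 with miR3124_mimic, 348 and 376 with miR200b_mimic, 2164 and 2140 with miR92b_inhibitor and 1151 and 1217 with 3-miRNA_mixed. No 2 groups overlapped. Against miRcontrol, MMP1 was higher by a log2 fold change of 1.55 ± 0.04 (SE) in miR92b_inhibitor (adjusted p = 6.97e-33), 0.69 ± 0.04 with 3-miRNA_mixed and 0.38 ± 0.04 with miR3124_mimic. It was lower in miR200b_mimic, at -1.02 ± 0.04 (adjusted p = 7.53e-26).

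MMP3, stromelysin-1, which cuts proteoglycans and activates other pro-MMPs, had 13.1 and 11.1 CPM in miRcontrol and 18.5 and 16.3 with miR3124_mimic. It had 8.97 and 10.99 CPM with miR200b_mimic, 53.9 and 61.5 with miR92b_inhibitor and 25.3 and 33.4 with 3-miRNA_mixed. All libraries of miR92b_inhibitor and 3-miRNA_mixed lay above those of the other 3 groups, while miR200b_mimic lay just below miRcontrol. Its log2 fold change was 2.26 ± 0.10 with miR92b_inhibitor (adjusted p = 1.34e-22), 1.28 ± 0.11 with 3-miRNA_mixed and 0.52 ± 0.12 with miR3124_mimic. In miR200b_mimic it was -0.26 ± 0.14 (adjusted p = 0.137).

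MMP1 and MMP3 belong to a run of 9 MMP genes on chromosome 11 (102520508 to 102955734, GRCh38), which spans 435.2 kb, and MMP3 starts 45.9 kb from MMP1. Their neighbours there did not show comparable levels. MMP7, MMP20 and MMP27 had 0 counts in all libraries, and MMP8 and MMP10 had 3 and 9 counts in all. MMP12, the macrophage elastase, ranged from 0.173 to 0.687 CPM, and its log2 fold changes lay between -1.21 and -0.14 with adjusted p from 0.141 to 0.852. MMP13, collagenase-3, had 7 and 4 counts in miRcontrol, 3 and 5 with miR3124_mimic, 1 and 5 with miR200b_mimic, 8 and 5 with miR92b_inhibitor and 10 and 14 with 3-miRNA_mixed, and was not tested. MMP1 and MMP3 share exon bases with WTAPP1 on the opposite strand. WTAPP1 had between 1 and 11 counts per library.

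The gelatinases MMP2 and MMP9, which cut denatured collagen and basement membrane collagen, were highest in miR3124_mimic. For MMP9, that group was not distinguished from 3-miRNA_mixed by edgeR's test (adjusted p = 0.164). MMP2 had 10.9 and 12.7 CPM in miRcontrol, 65.4 and 67.3 with miR3124_mimic, 10.0 and 9.26 with miR200b_mimic, 8.52 and 8.49 with miR92b_inhibitor and 15.2 and 12.4 with 3-miRNA_mixed. Thus both miR3124_mimic libraries stood far above the other 8, and 3-miRNA_mixed overlapped miRcontrol. This corresponded to a log2 fold change of 2.49 ± 0.09 with miR3124_mimic (adjusted p = 1.7e-27) and -0.47 ± 0.12 with miR92b_inhibitor (adjusted p = 0.00202). Without the second miRcontrol library, the latter was -0.36 with an adjusted p of 0.0742. MMP2 did not pass the test in miR200b_mimic (-0.29, adjusted p = 0.0522) or in 3-miRNA_mixed (0.23, adjusted p = 0.0949). In 3-miRNA_mixed it passed without the second miRcontrol library (0.34) or without the second 3-miRNA_mixed library (0.37), and in miR200b_mimic it passed with library totals only (-0.31), with 10 counts in every library (-0.30) and without the first miRcontrol library (-0.40) or either 3-miRNA_mixed library.

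MMP9 (chromosome 20, 46008908 to 46016561) was near the limit of detection in miRcontrol, with 1 and 0 counts. It had 26 and 41 counts in miR3124_mimic, 0 and 0 with miR200b_mimic, 9 and 16 with miR92b_inhibitor and 23 and 26 with 3-miRNA_mixed. The 3 groups with counts thus lay above both miRcontrol and miR200b_mimic in every library. Scaled to library size, the ratio to miRcontrol was 71.0 in miR3124_mimic, with a 95% exact counting interval of 12.3 to 2840. It was 45.7 (7.83 to 1840) in 3-miRNA_mixed and 24.2 (3.96 to 992) in miR92b_inhibitor. The intervals cover counting error only, and the edgeR adjusted p-values were 6.39e-09, 6.21e-07 and 0.000234. Against a floor of 3 counts over the 2 libraries of miR200b_mimic, the level of MMP9 was at least 21.3-fold higher with the miR-3124-5p mimic, at least 13.7-fold higher with the mixture and at least 7.24-fold higher with the miR-92b inhibitor. MMP9 shares exon bases with the antisense gene SLC12A5-AS1, which was not analysed here, and the counting strand is not given in the sources used here.

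MMP19 had 2.96 to 4.53 CPM over all libraries and did not pass the test against miRcontrol in any group, with log2 fold changes between -0.50 and 0.03. Its largest difference, in miR92b_inhibitor, had an adjusted p of 0.0533, and 0.0445 when 10 counts in every library were required of each gene. Between single agents, MMP19 was higher in miR3124_mimic than in miR92b_inhibitor (0.53, adjusted p = 0.025). MMP19 shares exon bases with TMEM198B on the opposite strand. TMEM198B had 62 and 57 counts in miR3124_mimic and 26 and 28 in miR92b_inhibitor, where MMP19 had 63 and 80 and 54 and 54. The counting strand is not given, and the part of this overlap in the MMP19 difference was not tested.

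Of the MMPs anchored in the membrane, MMP14 (MT1-MMP), which activates pro-MMP2 at the cell surface, was the most abundant per length. It had 293 and 298 CPM in miRcontrol, 310 and 309 with miR3124_mimic, 315 and 323 with miR200b_mimic, 401 and 400 with miR92b_inhibitor and 398 and 391.9 with 3-miRNA_mixed. The groups did not overlap with miRcontrol, but the distances differed. Against miRcontrol, the log2 fold change was 0.44 ± 0.04 with miR92b_inhibitor (adjusted p = 8.45e-14), 0.42 ± 0.04 with 3-miRNA_mixed, 0.11 ± 0.04 with miR200b_mimic (adjusted p = 0.0117) and 0.07 ± 0.04 with miR3124_mimic (adjusted p = 0.137). The call in miR200b_mimic was lost without the first miRcontrol library (adjusted p = 0.0914) and without the second miR200b_mimic library (0.0943). In miR3124_mimic the test was passed with library totals only (adjusted p = 0.0283).

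MMP15, MMP16 and MMP24, further transmembrane MMPs, were each highest in miR3124_mimic. MMP16 had 20.9 and 20.4 CPM in miRcontrol, 45.5 and 44.4 with miR3124_mimic, 16.5 and 15.6 with miR200b_mimic, 24.2 and 24.5 with miR92b_inhibitor and 26.5 and 23.9 with 3-miRNA_mixed. Both miR200b_mimic libraries were the lowest, and the last 2 groups overlapped. Its log2 fold change was 1.12 ± 0.08 with miR3124_mimic (adjusted p = 1.02e-16), -0.37 ± 0.09 with miR200b_mimic (adjusted p = 0.00136), 0.29 ± 0.08 with 3-miRNA_mixed and 0.24 ± 0.09 with miR92b_inhibitor (adjusted p = 0.0248). The miR92b_inhibitor call was lost without either library of that group or of miRcontrol, with DESeq2 (adjusted p = 0.0995) and with no filter on low counts (0.0551), and the 3-miRNA_mixed call was lost without the first library of that group (0.103). MMP16 carries CAGTATT in its 3′UTR.

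MMP15 had 35.3 and 36.0 CPM in miRcontrol and 63.8 and 58.2 with miR3124_mimic, a log2 fold change of 0.77 ± 0.07 (adjusted p = 1.06e-12). In miR92b_inhibitor it had 26.1 and 31.3 CPM (-0.31, adjusted p = 0.0017), a call that was lost without the first library of that group (-0.19, adjusted p = 0.127). In miR200b_mimic, MMP15 had 29.3 and 33.4 CPM and passed only without the second library of that group (-0.28, adjusted p = 0.0318). In 3-miRNA_mixed, MMP15 had 36.8 and 34.7 CPM, around the control values. MMP24 shares exon bases with MMP24OS on the opposite strand, which was not analysed here, and the counting strand is not given. MMP24 had 18.8 and 19.5 CPM in miRcontrol, 25.4 and 24.4 with miR3124_mimic (0.38, adjusted p = 0.00056) and 13.1 and 11.004 with miR92b_inhibitor (-0.67, adjusted p = 9.28e-07). In miR200b_mimic it had 22.7 and 22.1 CPM, which passed only with TMM (adjusted p = 0.0455) or without either miR92b_inhibitor library (0.0473). Its lower level in 3-miRNA_mixed (-0.25, adjusted p = 0.0353) did not hold with DESeq2 (0.136), with no filter (0.0725) or when any 1 library of the groups compared was left out (0.0774 to 0.15).

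MMP17 and MMP25 are held in the membrane by a lipid anchor. MMP17, the member with the miR-92b-5p word, had 2.003 and 3.22 CPM in miRcontrol, 5.05 and 3.39 with miR3124_mimic, 1.35 and 0.921 with miR200b_mimic, 1.40 and 1.20 with miR92b_inhibitor and 0.940 and 0.915 with 3-miRNA_mixed. All libraries of the last 3 groups lay below both control libraries. This corresponded to a log2 fold change of -1.48 ± 0.34 with 3-miRNA_mixed (adjusted p = 0.000306), -1.22 ± 0.34 with miR200b_mimic (0.00289), -1.00 ± 0.32 with miR92b_inhibitor (0.0114) and 0.68 ± 0.27 with miR3124_mimic (0.0308). The calls in miR200b_mimic and miR92b_inhibitor were lost without the second miRcontrol library (-0.85 and -0.62) and without the second library of the treated group (-0.95 and -0.89). In miR3124_mimic the call was lost without the first miRcontrol library (0.37) or the first miR3124_mimic library (0.38). In 3-miRNA_mixed it held without each library in turn (-1.79 to -1.11). DESeq2 lost the miR3124_mimic call (adjusted p = 0.151) and the miR92b_inhibitor call (0.0577). MMP25 had 0.538 to 1.70 CPM and passed the test against miRcontrol in no group. It shares exon bases with MMP25-AS1 on the opposite strand, which had 13 to 36 counts per library against 10 to 30 of MMP25.

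**Figure D3:**
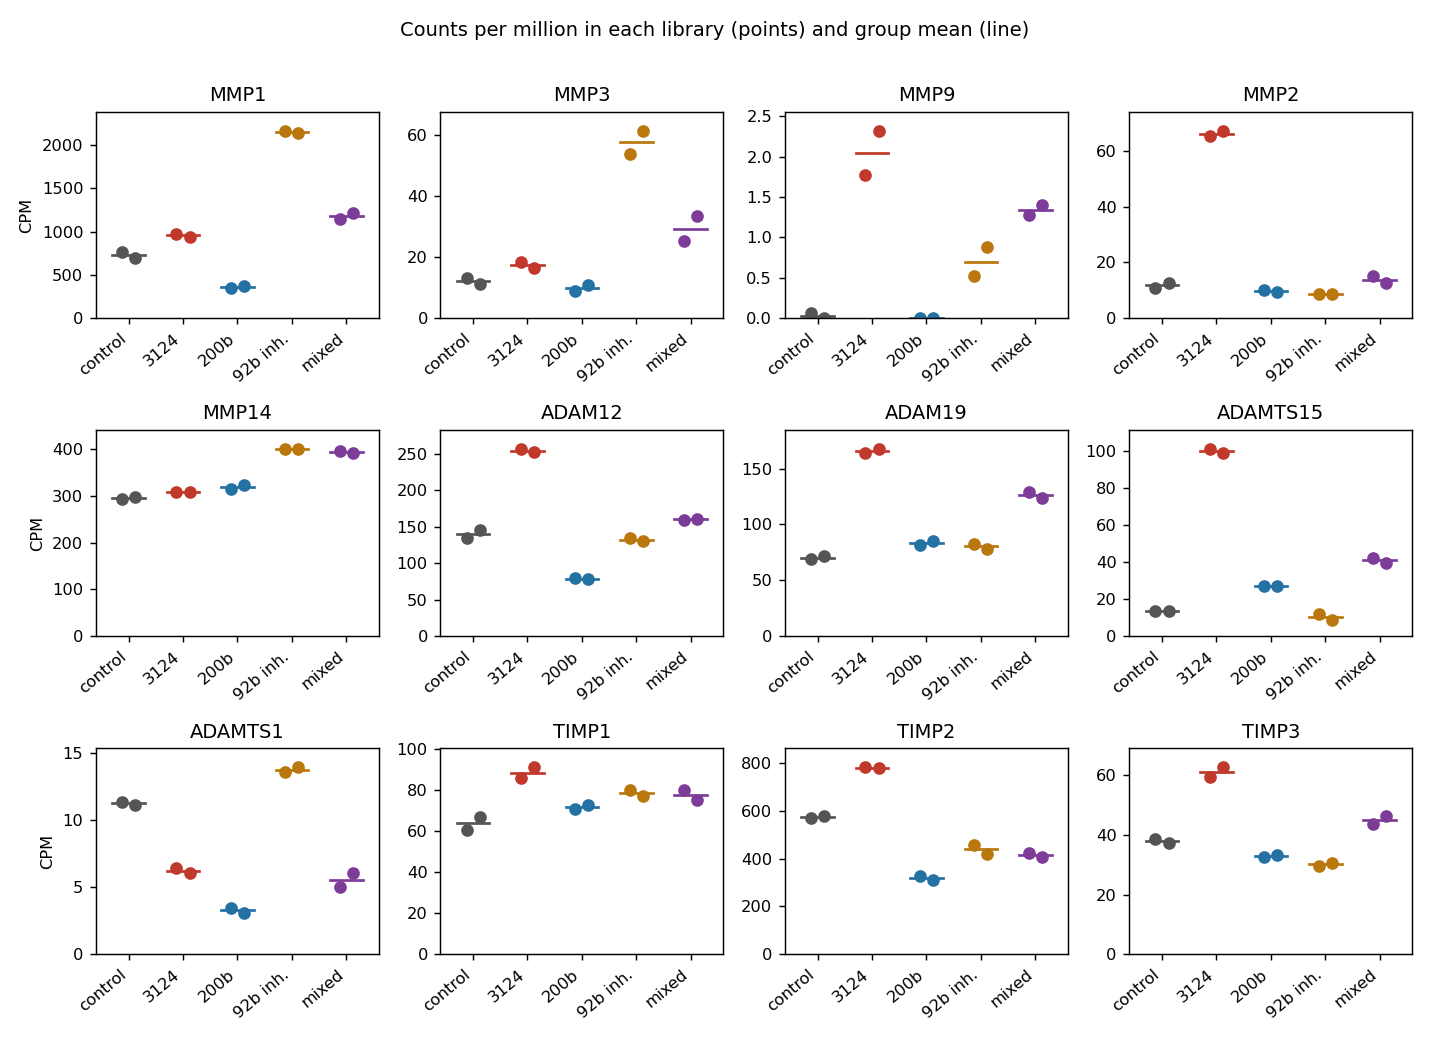
Normalized CPM in each of the 10 libraries (points) and group means (lines) for 12 members, on linear scales that start at 0 and differ between panels. MMP1 and MMP3 peak in miR92b_inhibitor, MMP2 and ADAMTS15 in miR3124_mimic, and TIMP2 is lowest in miR200b_mimic. Some libraries of a group lie apart, such as those of MMP3 in 3-miRNA_mixed (25.3 and 33.4 CPM) and MMP9 in miR92b_inhibitor (0.525 and 0.876 CPM).

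The ADAMs that shed cell surface proteins changed by less than a fold of 2 in all groups, apart from ADAM19. ADAM17, which releases TNF and several EGF receptor ligands, had 84.2 and 84.9 CPM in miRcontrol, 115 and 115 with miR3124_mimic, 71.7 and 76.1 with miR200b_mimic, 98.8 and 101 with miR92b_inhibitor and 98.1 and 99.0 with 3-miRNA_mixed. Only the last 2 groups overlapped. Against miRcontrol, the log2 fold change was 0.45 ± 0.05 with miR3124_mimic (adjusted p = 4.67e-11), -0.19 ± 0.05 with miR200b_mimic (0.00205), 0.24 ± 0.05 with miR92b_inhibitor (9.03e-05) and 0.22 ± 0.05 with 3-miRNA_mixed (0.000155). ADAM17 overlaps IAH1 on the opposite strand, which had 234 to 375 counts per library against 959 to 2036 of ADAM17. The counting strand is not given, and the part of this overlap in the ADAM17 values was not tested.

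ADAM10, the main sheddase of Notch receptors and cadherins, had 172 and 172 CPM in miRcontrol and 233 and 230 with miR3124_mimic. It had 185 and 171 CPM with miR200b_mimic, 157 and 158 with miR92b_inhibitor and 174 and 177 with 3-miRNA_mixed. It rose in miR3124_mimic (0.43 ± 0.04, adjusted p = 1.9e-12) and fell in miR92b_inhibitor (-0.13 ± 0.04, adjusted p = 0.0158). The latter call was lost without either library of either group, with adjusted p from 0.0715 to 0.0809. ADAM10 did not pass the test in miR200b_mimic (0.05, adjusted p = 0.386) or in 3-miRNA_mixed (0.03, adjusted p = 0.642).

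ADAM9, the most abundant ADAM per length, had 452 and 432 CPM in miRcontrol, 642 and 611 with miR3124_mimic, 421 and 414 with miR200b_mimic, 433 and 406 with miR92b_inhibitor and 500 and 498 with 3-miRNA_mixed. The miR3124_mimic and 3-miRNA_mixed libraries lay above the rest. Its log2 fold change was 0.50 ± 0.04 with miR3124_mimic (adjusted p = 4.39e-16) and 0.17 ± 0.04 with 3-miRNA_mixed (0.000128). In miR200b_mimic it was -0.08 with an adjusted p of 0.0682, which passed with library totals only (0.0251), with 10 counts required in every library (0.038) and without the second miRcontrol library (0.0499). In miR92b_inhibitor it was -0.08 (adjusted p = 0.103), and it passed without the first library of that group (0.0345).

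ADAM12 and ADAM19 are proteases of muscle and mesenchymal tissue that also shed growth factors. ADAM12 had 135 and 145 CPM in miRcontrol, 256 and 252 with miR3124_mimic, 79.1 and 78.8 with miR200b_mimic, 134 and 131 with miR92b_inhibitor and 160 and 161 with 3-miRNA_mixed. It was thus highest with the miR-3124-5p mimic and lowest with the miR-200b-3p mimic. This corresponded to a log2 fold change of 0.86 ± 0.04 with miR3124_mimic (adjusted p = 1e-22), -0.82 ± 0.05 with miR200b_mimic (1.48e-19) and 0.20 ± 0.04 with 3-miRNA_mixed (0.000154). In miR92b_inhibitor it was -0.08 (adjusted p = 0.163). ADAM12 carries CAGTATT at 2 positions, and their part in its level was not tested.

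ADAM19 had 69.0 and 71.3 CPM in miRcontrol, 164 and 168 with miR3124_mimic, 81.3 and 84.9 with miR200b_mimic, 82.6 and 78.3 with miR92b_inhibitor and 129 and 124 with 3-miRNA_mixed. All transfected libraries lay above both control libraries. Against miRcontrol, the log2 fold change was 1.24 ± 0.05 with miR3124_mimic (adjusted p = 1.68e-26), 0.85 ± 0.05 with 3-miRNA_mixed (1e-19), 0.25 ± 0.05 with miR200b_mimic (0.000122) and 0.20 ± 0.05 with miR92b_inhibitor (0.00195). The last was not called without the first miR92b_inhibitor library (0.16, adjusted p = 0.0525). ADAM19 holds GTGCAAT, and it overlaps CYFIP2 on the opposite strand, which had 43 to 166 counts per library.

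Of the other ADAMs, ADAM15 was lower in 3 groups. It had 139 and 151 CPM in miRcontrol and 107 and 97.2 with miR92b_inhibitor (-0.50, adjusted p = 1.58e-11), 125 and 126 with miR3124_mimic (-0.21) and 121 and 119 with 3-miRNA_mixed (-0.27). ADAM8, known from leukocytes, had 1.37 and 2.15 CPM in miRcontrol, 2.73 and 3.51 with miR3124_mimic (0.84, adjusted p = 0.00879) and 3.32 and 3.55 with 3-miRNA_mixed (0.97, adjusted p = 0.00238). Both calls were lost without the first miRcontrol library (adjusted p = 0.171 and 0.0891). The miR3124_mimic call was also lost without the second library of that group (0.143) and with DESeq2 (0.0554).

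ADAM11 and ADAM22 lack the catalytic zinc site and are known as neuronal membrane proteins. ADAM11 had 6.93 and 6.92 CPM in miRcontrol, 3.29 and 3.91 with miR200b_mimic (-0.93, adjusted p = 3.94e-05) and 4.70 and 4.52 with 3-miRNA_mixed (-0.59, adjusted p = 0.00368). ADAM22 had 2.29 and 2.86 CPM in miRcontrol, 2.12 and 2.89 with miR3124_mimic, 1.57 and 0.978 with miR200b_mimic, 1.58 and 1.31 with miR92b_inhibitor and 1.27 and 1.67 with 3-miRNA_mixed. The last 3 groups lay below miRcontrol, at log2 fold changes of -1.04 ± 0.33 (adjusted p = 0.0083), -0.83 ± 0.31 (0.0302) and -0.80 ± 0.31 (0.0293). All 3 calls were lost without the second miRcontrol library (-0.88, -0.67 and -0.64) and with DESeq2 (adjusted p = 0.0505, 0.12 and 0.122). They were also lost without the second miR200b_mimic library (-0.71), either miR92b_inhibitor library (-0.96 and -0.70) and the first 3-miRNA_mixed library (-0.62). ADAM20 had 0.383 to 1.43 CPM and passed the test against miRcontrol in no group.

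Among the ADAMTS enzymes, ADAMTS15, which cuts aggrecan and versican (chromosome 11, 130448974 to 130476641), had the highest log2 fold change in miR3124_mimic among members with 10 or more counts in every library. It had 13.5 and 13.7 CPM in miRcontrol, 101 and 99.3 with miR3124_mimic, 27.1 and 26.9 with miR200b_mimic, 12.1 and 8.87 with miR92b_inhibitor and 42.2 and 39.6 with 3-miRNA_mixed. No 2 groups overlapped. Its log2 fold change was 2.89 ± 0.08 with miR3124_mimic (adjusted p = 3.42e-32), 1.59 ± 0.09 with 3-miRNA_mixed (2.24e-20), 0.99 ± 0.10 with miR200b_mimic (4.32e-12) and -0.37 ± 0.11 with miR92b_inhibitor (0.00737). The last was -0.16 without the second library of that group (adjusted p = 0.399).

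ADAMTS1, of the same proteoglycan-cutting group, went the other way. It had 11.4 and 11.2 CPM in miRcontrol, 6.42 and 6.05 with miR3124_mimic, 3.44 and 3.11 with miR200b_mimic, 13.6 and 14.0 with miR92b_inhibitor and 5.03 and 6.03 with 3-miRNA_mixed. All libraries of miR3124_mimic, miR200b_mimic and 3-miRNA_mixed lay below miRcontrol. This corresponded to a log2 fold change of -1.79 ± 0.16 with miR200b_mimic (adjusted p = 5.88e-13), -1.03 ± 0.14 with 3-miRNA_mixed (3.82e-08) and -0.86 ± 0.14 with miR3124_mimic (1.24e-06). In miR92b_inhibitor it was 0.29 (adjusted p = 0.059), and it passed when only the 2 groups were fitted (0.0384).

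ADAMTS7 and ADAMTS12 are enzymes that cut cartilage oligomeric matrix protein. ADAMTS12, the most abundant ADAMTS per length in miRcontrol, had 85.7 and 85.4 CPM there, 209 and 201 with miR3124_mimic, 100 and 98.1 with miR200b_mimic, 77.4 and 75.7 with miR92b_inhibitor and 152 and 150 with 3-miRNA_mixed. No 2 groups overlapped. ADAMTS12 holds CAGTATT in its 3′UTR, and the part of this word in its level was not tested. Against miRcontrol, the log2 fold change was 1.26 ± 0.04 with miR3124_mimic (adjusted p = 4.69e-28), 0.82 ± 0.04 with 3-miRNA_mixed (2e-20), 0.21 ± 0.05 with miR200b_mimic (0.000287) and -0.16 ± 0.05 with miR92b_inhibitor (0.0072). The last call was lost without the second miR92b_inhibitor library (adjusted p = 0.0836). ADAMTS7 had 6.93 and 6.74 CPM in miRcontrol, 12.02 and 9.73 with miR3124_mimic (0.66, adjusted p = 0.000281) and 3.07 and 4.20 with miR200b_mimic (-0.89, adjusted p = 0.000114). It was called in 3-miRNA_mixed only without the first library of that group (-0.53, adjusted p = 0.0437).

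ADAMTS3 and ADAMTS14 remove the N-terminal propeptide of procollagens. ADAMTS3 had 5.38 and 4.77 CPM in miRcontrol, 14.9 and 12.9 with miR3124_mimic, 5.16 and 3.68 with miR200b_mimic, 4.49 and 3.996 with miR92b_inhibitor and 9.51 and 10.7 with 3-miRNA_mixed. It rose in miR3124_mimic (1.44 ± 0.15, adjusted p = 1.93e-11) and in 3-miRNA_mixed (0.99 ± 0.15, adjusted p = 6.83e-07), while the other 2 groups did not pass the test (-0.23 and -0.26). ADAMTS14 had 1.89 and 2.45 CPM in miRcontrol, 7.99 and 5.94 with miR3124_mimic, 2.69 and 2.13 with miR200b_mimic, 1.40 and 2.08 with miR92b_inhibitor and 3.37 and 2.69 with 3-miRNA_mixed. It passed the test in miR3124_mimic (1.67 ± 0.23, adjusted p = 2.73e-08) and in no other group.

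ADAMTS6 and ADAMTS10 are both linked to fibrillin microfibrils, and their values in miR3124_mimic lay on opposite sides of miRcontrol. ADAMTS6 had 51.7 and 51.0 CPM in miRcontrol, 18.6 and 20.8 with miR3124_mimic, 37.7 and 40.2 with miR200b_mimic, 56.7 and 57.5 with miR92b_inhibitor and 34.9 and 38.3 with 3-miRNA_mixed. It was the only member lower by a fold of at least 2 in miR3124_mimic (-1.38 ± 0.08, adjusted p = 1.26e-20), and it was lower in miR200b_mimic (-0.40 ± 0.07) and in 3-miRNA_mixed (-0.49 ± 0.07). In miR92b_inhibitor it was 0.15 (adjusted p = 0.0512), and it passed with TMM normalization (0.0378), library totals (0.0415), the 2 groups alone (0.03), 10 counts in every library (0.0458) and without the second miR3124_mimic library (0.0498).

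ADAMTS10 had few reads: 0.172 and 0.537 CPM in miRcontrol, 1.09 and 0.849 with miR3124_mimic, 0.299 and 0.173 with miR200b_mimic, 0.175 and 0.383 with miR92b_inhibitor and 0.387 and 0.377 with 3-miRNA_mixed. It was reported only because both miR3124_mimic libraries reached 10 counts (16 and 15), so its higher level there was part of how it was chosen. Its call in miR3124_mimic (1.44 ± 0.57, adjusted p = 0.0314) was lost without the first miRcontrol library (0.83), without either miR3124_mimic library (1.25 and 1.61) and with DESeq2 (adjusted p = 0.159). ADAMTS16 had 14.6 to 19.8 CPM over all libraries, and its call in miR200b_mimic (-0.26, adjusted p = 0.0461) was lost with TMM, with DESeq2, with no filter, and without the second miRcontrol, the first miR3124_mimic or the second miR200b_mimic library.

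The inhibitors differed from each other. TIMP1 had 60.6 and 66.8 CPM in miRcontrol, 85.6 and 91.1 with miR3124_mimic, 71.0 and 72.7 with miR200b_mimic, 79.8 and 77.1 with miR92b_inhibitor and 80.1 and 75.1 with 3-miRNA_mixed. All transfected libraries lay above both control libraries. Its log2 fold change was 0.48 ± 0.06 with miR3124_mimic (adjusted p = 4.85e-10), 0.30 ± 0.06 with miR92b_inhibitor (2.43e-05), 0.28 ± 0.06 with 3-miRNA_mixed (3.51e-05) and 0.18 ± 0.06 with miR200b_mimic (0.0118). The last was lost without the first miRcontrol library (0.11, adjusted p = 0.243), without the second miR200b_mimic library (0.0945) and with DESeq2 (0.0531).

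TIMP2, the inhibitor that also helps MMP14 to activate pro-MMP2, had 572 and 581 CPM in miRcontrol, 785 and 781 with miR3124_mimic, 328 and 310 with miR200b_mimic, 457 and 421 with miR92b_inhibitor and 424 and 406 with 3-miRNA_mixed. Only the last 2 groups overlapped, and miR200b_mimic was lowest. This corresponded to a log2 fold change of 0.44 ± 0.04 with miR3124_mimic (adjusted p = 2.98e-14), -0.85 ± 0.04 with miR200b_mimic (1.99e-23), -0.39 ± 0.04 with miR92b_inhibitor (1.03e-11) and -0.47 ± 0.04 with 3-miRNA_mixed (1.04e-14). Its CAGTATT word is the one shown above, at the end of the 3′UTR.

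TIMP3, which binds to the matrix and inhibits ADAM17 and ADAMTS enzymes as well as MMPs, had 38.8 and 37.4 CPM in miRcontrol, 59.5 and 62.8 with miR3124_mimic, 32.7 and 33.1 with miR200b_mimic, 29.6 and 30.7 with miR92b_inhibitor and 43.6 and 46.5 with 3-miRNA_mixed. No 2 groups overlapped. Against miRcontrol, the log2 fold change was 0.69 ± 0.06 with miR3124_mimic (adjusted p = 9.62e-13), -0.34 ± 0.07 with miR92b_inhibitor (0.000147), 0.24 ± 0.07 with 3-miRNA_mixed (0.00233) and -0.21 ± 0.07 with miR200b_mimic (0.015). The miR200b_mimic call was lost without the first miRcontrol library, without either miR200b_mimic library (adjusted p from 0.0622 to 0.12) and with DESeq2 (0.0681). The 3-miRNA_mixed call was lost without the second library of that group (0.0648).

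TIMP4 had 0.115 and 0.418 CPM in miRcontrol, 1.23 and 1.36 with miR3124_mimic, 0.748 and 0.173 with miR200b_mimic, 0.117 and 0.219 with miR92b_inhibitor and 0.442 and 0.108 with 3-miRNA_mixed. As miR3124_mimic was the only group with 10 or more counts in both libraries, its higher level there was part of how TIMP4 was chosen. It passed the test in miR3124_mimic (2.27 ± 0.61, adjusted p = 0.00147), a call that was lost without the first miRcontrol library (1.62, adjusted p = 0.0661). TIMP4 shares exon bases with SYN2 on the opposite strand, which had at most 2 counts per library.

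The transfected groups were next compared directly, to ask where single agents differed from each other and where the mixture differed from each of its parts. Between miR3124_mimic and miR200b_mimic, 28 of 35 members differed, against 57.8% of all genes. Between miR3124_mimic and miR92b_inhibitor it was 30, against 58.8%, and between miR200b_mimic and miR92b_inhibitor 17, against 50.5%. The share of members (48.6%) in the last pair was thus near that of all genes. The 28 and the 30 both include ADAM20, ADAMTS10, MMP9 and TIMP4. These reached 10 counts in both libraries only in miR3124_mimic or, for ADAM20 and MMP9, also in 3-miRNA_mixed. Both counts are therefore not independent of how the members passed the filter. MMP1 was lower in miR200b_mimic than in miR92b_inhibitor by a log2 difference of -2.57 ± 0.04 (adjusted p = 1.61e-41) and MMP3 by -2.52 ± 0.11 (1.83e-24). MMP2 was higher in miR3124_mimic than in miR200b_mimic by 2.79 ± 0.10 and than in miR92b_inhibitor by 2.96 ± 0.10. MMP9 had 2.94 times the level in miR3124_mimic that it had in miR92b_inhibitor (95% counting interval 1.83 to 4.85, edgeR adjusted p = 0.00129).

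The 3-miRNA_mixed group differed from miR3124_mimic in 26 members, against 49.1% of all genes. It differed from miR200b_mimic in 19, against 38.6%, and from miR92b_inhibitor in 18, against 39.6%. The 19 include MMP9, which reached 10 counts in both libraries only in miR3124_mimic and 3-miRNA_mixed. For MMP1 and MMP3, the mixture lay between the single agents. MMP1 differed from miR92b_inhibitor by -0.86 ± 0.04 on the log2 scale (adjusted p = 4.01e-24) and was higher than in miR200b_mimic by 1.71 ± 0.04 (3.19e-34) and than in miR3124_mimic by 0.31 ± 0.04 (2.23e-09). MMP3 was likewise lower than in miR92b_inhibitor (-0.98 ± 0.09) and higher than in miR200b_mimic (1.54 ± 0.12) and miR3124_mimic (0.76 ± 0.11).

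Of the 26 members that differed between 3-miRNA_mixed and miR3124_mimic, 22 were lower in the mixture, against 23.8% of all genes, and 4 were higher (ADAMTS6, MMP1, MMP3 and MMP14), against 25.3%. The 22 comprised 6 MMPs, 6 ADAMs, 6 ADAMTSs and all 4 TIMPs. They include ADAMTS10 and TIMP4, for which miR3124_mimic was the only group with both libraries at 10 or more counts. For these members, a lower level outside miR3124_mimic was part of how they were chosen. This comparison shares the miR3124_mimic libraries with that of miR3124_mimic against miRcontrol. Values are given for the 7 members that were past a fold of 2 in miR3124_mimic and had 10 or more counts in every library. The log2 difference between 3-miRNA_mixed and miR3124_mimic was -2.27 ± 0.09 for MMP2 (adjusted p = 3.2e-26), -1.29 ± 0.07 for ADAMTS15 (8.8e-22), -1.19 ± 0.21 for ADAMTS14 (7.24e-06), -0.83 ± 0.08 for MMP16 (5.55e-13), -0.46 ± 0.13 for ADAMTS3 (0.00344), -0.44 ± 0.04 for ADAMTS12 (9.18e-13) and -0.39 ± 0.04 for ADAM19 (2.2e-10). Against miRcontrol, ADAMTS15, ADAMTS12, ADAMTS3, ADAM19 and MMP16 were called higher in the mixture, while MMP2 (0.23) and ADAMTS14 (0.48) were not called.

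Of the other 15 members that were lower in the mixture than in miR3124_mimic, MMP17, MMP24, TIMP2 and ADAM22 were also called lower than miRcontrol in the mixture (-1.48, -0.25, -0.47 and -0.80). ADAM9, ADAM12, ADAM17, TIMP1 and TIMP3 were called higher than miRcontrol, and ADAM10, ADAMTS7, ADAMTS10, MMP15, MMP25 and TIMP4 were not called. MMP14, ADAM17, TIMP1 and TIMP2 were not distinguished between the mixture and miR92b_inhibitor, which does not show equal levels. Their log2 differences were -0.02 ± 0.04, -0.02 ± 0.05, -0.02 ± 0.05 and -0.08 ± 0.04, with adjusted p from 0.084 to 0.848. For MMP9, the mixture had 0.645 times the level of miR3124_mimic (95% counting interval 0.437 to 0.946) and 1.89 times that of miR92b_inhibitor (1.15 to 3.2), and neither difference passed edgeR's test (adjusted p = 0.164 and 0.0896).

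**Figure D4:**
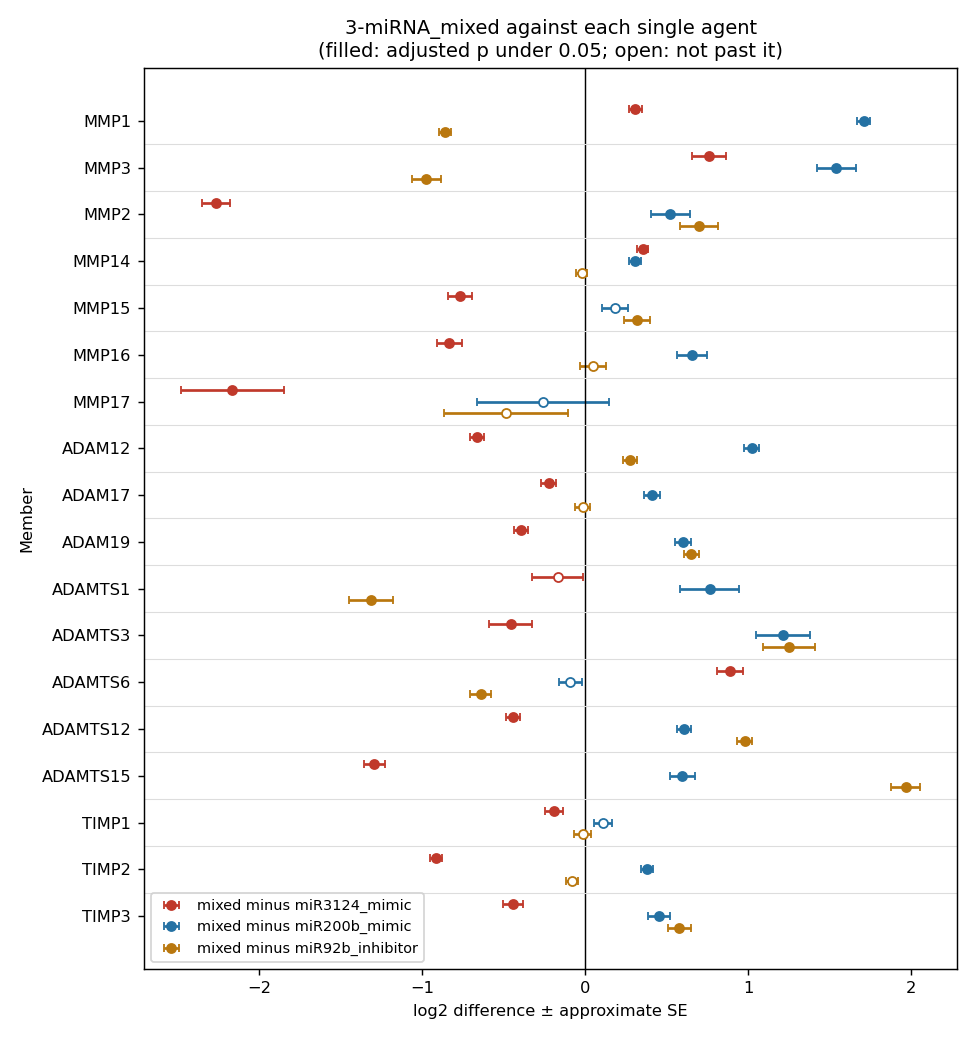
log2 difference of 3-miRNA_mixed from each single agent for 18 members, with bars of 1 approximate standard error, and filled points where the adjusted p was under 0.05. MMP1 and MMP3 lie right of 0 against miR3124_mimic and miR200b_mimic and left of 0 against miR92b_inhibitor, while MMP2 (-2.27) and MMP17 (-2.16) lie farthest left, against miR3124_mimic.

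Other genes of the pathway were counted from fixed lists, in the same fit. Of 17 tested matrix proteins that these enzymes cut or bind, 12 were higher (70.6%) and 1 lower (5.88%) in miR3124_mimic, against 25.7% and 25.3% of all genes. With miR200b_mimic it was 3 (17.6%) and 7 (41.2%) against 21.4% and 19.1%, with miR92b_inhibitor 2 (11.8%) and 12 (70.6%) against 17.5% and 18.2%, and with 3-miRNA_mixed 9 (52.9%) and 3 (17.6%) against 21.5% and 21.1%. COL4A1, a basement membrane collagen, rose from 131 and 133 CPM in miRcontrol to 315 and 304 with miR3124_mimic, and FN1, fibronectin, fell from 3180 and 3350 to 1440 and 1370 with miR200b_mimic. FN1 and COL1A1 of this list are also on the list of mesenchymal markers, and they moved in opposite directions in miR200b_mimic. COL1A1 was called higher there, by a log2 fold change of 1.62, where FN1 was at -1.21. COL1A1 was also called higher in miR3124_mimic (0.99) and 3-miRNA_mixed (0.87), and lower in miR92b_inhibitor (-0.90). The lower sum of mesenchymal markers in miR200b_mimic therefore does not mean that each marker fell.

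Of 18 tested regulators of metalloproteinase activity, 8 were higher (44.4%) and 4 lower (22.2%) in miR3124_mimic, against 25.7% and 25.3% of all genes. With miR200b_mimic it was 5 (27.8%) and 8 (44.4%) against 21.4% and 19.1%, with miR92b_inhibitor 7 (38.9%) and 3 (16.7%) against 17.5% and 18.2%, and with 3-miRNA_mixed 5 (27.8%) and 5 (27.8%) against 21.5% and 21.1%. RECK, a membrane inhibitor of MMP2, MMP9 and MMP14, had 16.3 CPM in both miRcontrol libraries and rose in miR3124_mimic by a log2 fold change of 1.35. FURIN, the convertase that removes the propeptide of MMP14 and of most ADAMs, rose from 104 and 101 to 173 and 163 in the same group. PLAU, urokinase, whose product plasmin activates pro-MMPs, rose from 169 and 175 CPM to 453 and 454 with miR3124_mimic and to 427 and 421 with 3-miRNA_mixed. LRP1, a receptor that clears several of these enzymes, fell from 331 and 340 CPM to 157 and 165 with miR200b_mimic.

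Of 23 transcription factors known to act on MMP promoters, 9 were higher (39.1%) and 9 lower (39.1%) in miR3124_mimic, against 25.7% and 25.3% of all genes. With miR200b_mimic it was 9 (39.1%) and 4 (17.4%) against 21.4% and 19.1%, with miR92b_inhibitor 14 (60.9%) and 3 (13.0%) against 17.5% and 18.2%, and with 3-miRNA_mixed 12 (52.2%) and 5 (21.7%) against 21.5% and 21.1%. In miR92b_inhibitor, FOSL1, an AP-1 subunit, rose from 278 and 261 CPM to 436 and 447, and ETV4, an ETS factor, from 16.4 and 16.4 to 27.1 and 30.2. In miR3124_mimic, ETV4 rose to 46.4 and 42.5 CPM, and JUND, another AP-1 subunit, fell from 82.9 and 80.5 to 23.7 and 22.5. ZEB2 and ZEB1, repressors of epithelial genes, fell in miR200b_mimic, from 33.8 and 30.8 to 6.95 and 6.44 CPM and from 63.3 and 62.9 to 25.9 and 25.6. SNAI2 of the same list rose in miR200b_mimic, from 23.1 and 23.3 to 44.3 and 43.1 CPM.

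Of 15 partners of ADAM10 and ADAM17, 6 were higher (40%) and 4 lower (26.7%) in miR3124_mimic, against 25.7% and 25.3% of all genes. With miR200b_mimic it was 4 (26.7%) and 5 (33.3%) against 21.4% and 19.1%, with miR92b_inhibitor 1 (6.67%) and 8 (53.3%) against 17.5% and 18.2%, and with 3-miRNA_mixed 3 (20%) and 7 (46.7%) against 21.5% and 21.1%. RHBDF2 (iRhom2), which escorts ADAM17 to the cell surface, rose from 35.9 and 35.0 CPM to 54.7 and 54.7 with miR3124_mimic and fell to 26.9 and 26.4 with miR92b_inhibitor. Of 24 proteins shed by these 2 enzymes, 12 were higher (50%) and 5 lower (20.8%) in miR3124_mimic, against 25.7% and 25.3% of all genes. With miR200b_mimic it was 13 (54.2%) and 6 (25.0%) against 21.4% and 19.1%, with miR92b_inhibitor 6 (25.0%) and 4 (16.7%) against 17.5% and 18.2%, and with 3-miRNA_mixed 12 (50%) and 7 (29.2%) against 21.5% and 21.1%. AREG, amphiregulin, an EGF receptor ligand released by ADAM17, rose from 5.32 and 5.49 CPM to 27.1 and 29.5 with miR200b_mimic and to 23.2 and 26.1 with 3-miRNA_mixed. IL6R rose from 9.50 and 9.13 CPM to 31.3 and 31.5 with miR3124_mimic, 52.5 and 53.0 with miR200b_mimic, 13.8 and 14.8 with miR92b_inhibitor and 41.4 and 45.6 with 3-miRNA_mixed.

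Of 13 tested genes from related families that the naming rule leaves out, 6 were higher (46.2%) and 4 lower (30.8%) in miR3124_mimic, against 25.7% and 25.3% of all genes. With miR200b_mimic it was 2 (15.4%) and 3 (23.1%) against 21.4% and 19.1%, with miR92b_inhibitor 1 (7.69%) and 7 (53.8%) against 17.5% and 18.2%, and with 3-miRNA_mixed 4 (30.8%) and 5 (38.5%) against 21.5% and 21.1%. PAPPA, a metalloproteinase that cuts IGF-binding proteins, rose from 19.3 and 22.4 CPM to 106 and 113 with miR3124_mimic and to 43.6 and 45.1 with 3-miRNA_mixed. ADAMTSL1, an ADAMTS-like protein without a protease domain, fell from 117 and 115 CPM to 52.2 and 57.3 with miR200b_mimic. All values are of mRNA, and neither protein nor enzyme activity was measured in these files.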

How the data were processed

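BEAS2B cells were transfected with Lipofectamine 2000, and poly(A) RNA libraries were made with a directional kit. The authors trimmed the reads and mapped them with TopHat (build GRCh38 per the submitters' processing notes). Each deposited file gives raw read counts by gene symbol, as whole numbers without normalization. The counting tool, its strand setting and the annotation are not given in the sources used here, so genes that overlap on opposite strands are uncertain.

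Each library listed 58173 rows, of which 5771 repeated a symbol and were summed. Of the members, 11 symbols were repeated, 1 of them (ADAM32) with counts on both rows. In R 4.3.3, edgeR 4.0.16 fitted all 10 libraries together (filterByExpr, RLE factors, quasi-likelihood test; 14884 genes, common dispersion 0.000751, no covariates). Standard errors were approximated as the absolute log2 fold change divided by the square root of F. RPKM used the union exon length in GENCODE release 29. Intervals of MMP9 ratios are 95% exact binomial intervals and cover counting error only. The edgeR step was tested on simulated data before use.

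Sharing a replicate number did not make libraries of different groups move together: differences between replicates correlated across groups between -0.0695 and 0.0598 over 10419 genes. The alternatives were TMM, library totals, DESeq2 1.42.0, the 2 groups alone, no filter, a minimum of 10 counts per library, a fit with a replicate block, and each library left out in turn. All reported members are named. Every library's values are given for TIMP1 to TIMP4, MMP1, MMP2, MMP9, MMP14, ADAM9, ADAM10, ADAM17 and each member past a fold of 2. Up to 4 genes per pathway list, those with the largest called folds at a mean CPM of at least 1, could be named, and some of them are. The members and lists were chosen with earlier results of these data known. A planned search of protein sequences was not run.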

Additional observations from a re-analysis of the deposited data

Results flagged for a closer look

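Members were looked for that moved in opposite directions against miRcontrol under 2 single agents and that differed directly between those 2 groups by a log2 difference of at least 1, with an adjusted p under 0.05 in edgeR's quasi-likelihood test. Between miR3124_mimic and miR200b_mimic, this held for MMP17 (1.91), ADAM12 (1.69), ADAMTS7 (1.55), MMP16 (1.49), MMP1 (1.40) and TIMP2 (1.30), all higher in miR3124_mimic. Between miR3124_mimic and miR92b_inhibitor, it held for ADAMTS15 (3.26), MMP2 (2.96), MMP17 (1.68), ADAMTS12 (1.42), MMP15 (1.08), MMP24 (1.05) and TIMP3 (1.02), again all higher in miR3124_mimic. Between miR200b_mimic and miR92b_inhibitor, ADAMTS15 was higher in miR200b_mimic (1.37) and MMP1 lower (-2.57). The share of all genes that meet this rule was not counted. These lists therefore do not show that such movement is particular to the members. The lower levels of ADAMTS12, ADAMTS15, MMP2, MMP15 and MMP17 in miR92b_inhibitor against miRcontrol, and the calls of MMP17 in the other 2 groups, did not pass the test without 1 of the libraries named in the report.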

How the results depend on the processing

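ADAM20, ADAMTS10, MMP9, MMP12, MMP13 and TIMP4 had under 10 counts in some libraries, so their values rest on few reads. With 2 libraries per group, a difference that missed the threshold does not show equal levels. All 238 alternative counts of called members stayed within 1.5 times the reported count. Of 2336 alternative values of single members, 2222 kept their direction and their side of the threshold, 65 kept the direction and lost the call, 24 gained one and 25 changed sign. The replicate block left 27, 18, 19 and 23 members called in miR3124_mimic, miR200b_mimic, miR92b_inhibitor and 3-miRNA_mixed, and changed no call of a single member against miRcontrol.

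Leaving out each library in turn gave 23 to 27 called members in miR3124_mimic, 13 to 19 in miR200b_mimic, 13 to 20 in miR92b_inhibitor and 21 to 23 in 3-miRNA_mixed. With a fold of at least 2, the ranges were 9 to 13, 3 to 5, 3 to 4 and 5 to 6. Between 3-miRNA_mixed and miR3124_mimic, miR200b_mimic and miR92b_inhibitor, 22 to 26, 18 to 19 and 16 to 18 members were called. Between miR3124_mimic and miR200b_mimic it was 23 to 28, between miR3124_mimic and miR92b_inhibitor 26 to 30, and between miR200b_mimic and miR92b_inhibitor 16 to 17.

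The sign changes all came from leaving out 1 library, in comparisons that had not passed the test, and the cause was not tested. In miR3124_mimic, leaving out a library gave log2 fold changes of -0.28 to 0.16 for ADAM22 (also 0.14), -0.36 to 0.046 for MMP12 (also 0.020) and -0.036 to 0.10 for MMP19 (also -0.0089). In miR200b_mimic, it gave -0.0038 to 0.11 for ADAM10, -0.46 to 0.023 for ADAMTS3, -1.20 to 0.40 for ADAMTS10, -0.036 to 0.33 for ADAMTS14 (also -0.022) and -0.59 to 1.84 for TIMP4. In miR92b_inhibitor, it gave -0.23 to 0.11 for ADAM11, -0.97 to 0.69 for ADAMTS10 (also 0.12), -0.21 to 0.35 for MMP25 (also -0.052) and -1.27 to 0.53 for TIMP4. In 3-miRNA_mixed, it gave -0.59 to 0.51 for ADAM20, -0.48 to 1.12 for ADAMTS10, -0.21 to 0.027 for ADAMTS16, -0.038 to 0.045 for MMP15 (also -0.012) and -1.23 to 1.20 for TIMP4 (also -0.60).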
